A study of Mus musculus with 30 samples.

Results

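Heat shock proteins, their DnaJ cochaperones and the heat shock factors Hsf1 and Hsf2 were followed in mouse spinal cord after cortical stroke. Members were chosen by symbol alone, as genes named Hsp followed by a, b, d, e or h and a digit, or Hsp90, genes named Dnaja, Dnajb or Dnajc with a digit, and the 2 factors, and the 1 row named as a pseudogene was left out. This gave 65 of the 16995 genes in the table, under 64 symbols, because Hspa14 had 2 gene identifiers. They were 15 genes of the HSP70 and HSP110 family, 3 of HSP90, 2 of HSP60 and HSP10, 4 small heat shock proteins, 4 DnaJ A, 10 DnaJ B and 25 DnaJ C genes and 2 heat shock factors. All were annotated as protein coding, and 64 of the 65 had a value above 0 in every animal.

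The study asked how gene expression in the denervated cervical cord changes while spared corticospinal fibers sprout after a stroke. Adult female C57BL/6 mice received a photothrombotic stroke of the right sensorimotor cortex, made by illuminating the skull after injection of the dye Rose Bengal, and were killed 4, 7, 14, 28 or 42 days post-injury (dpi). The group labelled Ctrl was sham operated, without illumination. Total RNA was taken from the intermediate laminae of cervical levels C5 and C6 on the side that had lost its cortical input, depleted of ribosomal RNA and sequenced. Values existed for 29 of 30 labelled animals, 4 at 4 dpi and 5 in each other group. The paper left out a 4 dpi sample as an outlier in its testing of differential expression. It chose the animals for sequencing on scores that included RNA quality. All animals were C57BL/6, and tissue was trimmed by hand and holds many cell types, so for every value below fewer cells of a type and less RNA per cell cannot be told apart.

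Heat shock proteins are chaperones, which bind unfolded or newly made proteins and help them to fold. HSP70 proteins work in an ATP-driven cycle that DnaJ proteins start and nucleotide exchange factors end, HSP90 proteins finish the folding of signalling proteins, HSP60 and HSP10 form a folding chamber in mitochondria, and small heat shock proteins hold unfolded proteins without ATP. The transcription factor HSF1 raises the cytosolic and some mitochondrial chaperones in heat or proteotoxic stress, whereas the chaperones of the endoplasmic reticulum (ER) are raised by the unfolded protein response, and in neurons chaperones also serve synaptic vesicle release and the uncoating of vesicles.

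Values were the authors' normalized CPM (reads of a gene scaled to library size), rounded to 0.1, with medians over genes between 10.2 and 11.2 in all animals and an unknown sequencing depth. Residual 18S ribosomal RNA (Rn18s-rs5) ranged from 30321 to 52929 among sham animals. Of the 28 dpi group, A4-1 had 44755 and the other 4 animals 291950 to 779160. At 42 dpi all 5 animals lay above the sham range, at 78737 to 457302, and 14 dpi held 2 rich animals, at 419050 and 817780. The 8 neuron markers summed to 4155 to 5822 in the sham group and 4127 to 4631 at 28 dpi, with 1 marker higher and 1 lower at 28 dpi by limma's moderated test with Benjamini-Hochberg adjustment over all genes (adjusted p under 0.05, used for every call below). The 5 oligodendrocyte markers summed to 5126 to 7801 in the sham group, 3736 to 5503 at 28 dpi and 4389 to 5232 at 42 dpi, and 3 of 5 were lower at 28 dpi. Of 4 endothelial markers 2 were higher at 28 dpi (median 0.22 on the log2 scale, sums of 59.5 to 86.2 in the sham group and 68.0 to 119.9 at 28 dpi), and of 5 astrocyte markers 1 was higher and 2 were lower. Of the other lists, 1 of 5 microglia, 1 of 5 blood and 1 of 4 fibroblast and meninges markers were higher, the last 2 past 1.5-fold. No marker in these lists had a mean value under 0.5. Fits with ribosomal RNA as a covariate are given beside the results, and the part of cell content in them was not tested. Sham animals came from 2 label units, A11 and A12, whose nature is not given by the labels, and on 12 members of the heat shock response (listed with the methods) the A11 animals lay 0.31 and 0.20 below the sham mean on the log2 scale, and the A12 animals 0.12, 0.20 and 0.20 above it.

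Stretches of 300 bases around the transcription starts (RefSeq, mouse build GRCm38.p6, 250 bases before and 50 after each start) were available for 52 of the 64 member symbols, and 6 are shown because they hold a motif of one of the 2 stress pathways. The ER stress response element was searched on both strands as CCAAT and CCACG with 9 free bases between them, and matches could overlap. It was found in 3 members, Hspa5, Hsp90b1 and Dnajc3, and in 37 of all 27025 genes of the reference table (0.137%). All 3 encode ER proteins, the HSP70 chaperone BiP, the HSP90 chaperone GRP94 and the DnaJ protein p58IPK. Capitals mark the motif, and each sequence is read 5′ to 3′ on the strand of its gene. The windows are chr2:34771840-34772139 (plus strand), chr10:86705395-86705694 (minus strand) and chr14:118937682-118937981 (plus strand).
Hspa5: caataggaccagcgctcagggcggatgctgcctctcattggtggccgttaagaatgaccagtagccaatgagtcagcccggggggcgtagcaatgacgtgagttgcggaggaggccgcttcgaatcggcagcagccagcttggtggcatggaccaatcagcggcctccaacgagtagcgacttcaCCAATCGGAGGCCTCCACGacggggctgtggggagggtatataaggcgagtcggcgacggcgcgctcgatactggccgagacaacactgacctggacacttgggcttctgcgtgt
Hsp90b1: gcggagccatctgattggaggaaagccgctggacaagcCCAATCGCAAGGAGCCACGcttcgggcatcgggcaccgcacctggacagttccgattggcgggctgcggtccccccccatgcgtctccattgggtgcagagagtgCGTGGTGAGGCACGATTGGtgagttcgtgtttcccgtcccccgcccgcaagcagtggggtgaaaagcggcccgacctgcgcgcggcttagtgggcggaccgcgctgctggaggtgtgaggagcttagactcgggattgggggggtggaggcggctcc
Dnajc3: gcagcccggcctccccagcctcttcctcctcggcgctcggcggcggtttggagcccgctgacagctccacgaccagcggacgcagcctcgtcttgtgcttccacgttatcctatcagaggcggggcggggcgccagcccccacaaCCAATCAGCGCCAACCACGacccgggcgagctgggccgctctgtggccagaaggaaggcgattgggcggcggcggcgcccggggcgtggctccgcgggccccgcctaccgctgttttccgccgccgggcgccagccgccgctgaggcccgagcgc
The match in Hspa5 covered positions -65 to -47 from the start. Hsp90b1 held 2 matches, from -212 to -194 and, on the other strand, from -107 to -89. Dnajc3 had its match between -105 and -87.

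A heat shock element made of 3 inverted repeats was searched on both strands as GAA, TTC and GAA with 2 free bases between neighbours. It was found in Dnajb6, Hspd1, Hspe1 and Hsph1 and in 179 of the 27025 genes (0.662%). Hspd1, the mitochondrial chaperonin HSP60, and Hspe1, its lid HSP10, lie head to head with starts 216 bases apart, so that the 300-base windows share 285 bases and the same pair of overlapping matches. Only the Hspe1 window is printed, at chr1:55087898-55088197 (plus strand), followed by Hsph1 at chr5:149636287-149636586 (minus strand) and Dnajb6 at chr5:29735648-29735947 (plus strand).
Hspe1: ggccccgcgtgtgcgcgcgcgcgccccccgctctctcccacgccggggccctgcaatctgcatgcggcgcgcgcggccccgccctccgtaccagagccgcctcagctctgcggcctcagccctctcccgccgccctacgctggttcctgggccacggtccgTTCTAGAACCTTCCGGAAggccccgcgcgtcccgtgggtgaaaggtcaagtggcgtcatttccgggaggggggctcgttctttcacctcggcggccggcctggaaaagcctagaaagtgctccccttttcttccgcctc
Hsph1: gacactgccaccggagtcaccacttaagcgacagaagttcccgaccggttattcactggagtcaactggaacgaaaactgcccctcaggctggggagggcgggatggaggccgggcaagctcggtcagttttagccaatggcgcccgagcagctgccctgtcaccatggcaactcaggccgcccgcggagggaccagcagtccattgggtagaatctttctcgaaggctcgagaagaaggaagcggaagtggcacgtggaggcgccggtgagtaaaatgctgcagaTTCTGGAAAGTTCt
Dnajb6: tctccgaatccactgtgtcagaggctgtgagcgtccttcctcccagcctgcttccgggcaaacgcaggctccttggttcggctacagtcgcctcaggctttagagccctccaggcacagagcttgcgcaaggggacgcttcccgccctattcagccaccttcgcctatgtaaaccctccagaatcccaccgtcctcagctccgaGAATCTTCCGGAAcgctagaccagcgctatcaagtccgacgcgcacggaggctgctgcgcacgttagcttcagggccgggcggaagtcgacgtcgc
The 2 matches in Hspe1 ran from -89 to -72. The match in Hsph1 lay after the start, from 37 to 49, and that in Dnajb6 before it, from -46 to -34. A match is a string of letters and shows no binding, and the other members had no such string in these windows.

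Levels differed widely between members. Divided by exon length, the highest sham level was that of Hspa8, the constitutive cytosolic HSP70 that also uncoats clathrin vesicles, at 412 CPM per kilobase. Next came the cytosolic HSP90 genes Hsp90aa1 and Hsp90ab1 at 263 and 198 CPM per kilobase. The leading ER and mitochondrial chaperones lay well below, with Hsp90b1 at 54.4, Hspd1 at 46.3, Hspa5 at 43.9 and Hspa9 at 40.1 CPM per kilobase, beside 39.2 for Dnajc5, the synaptic vesicle cochaperone cysteine string protein. At the other end, Dnajb13, a DnaJ protein of cilia and sperm tails, had a mean of 0.441 CPM over all animals and was the only member with a mean under 1.

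**Figure D1:**
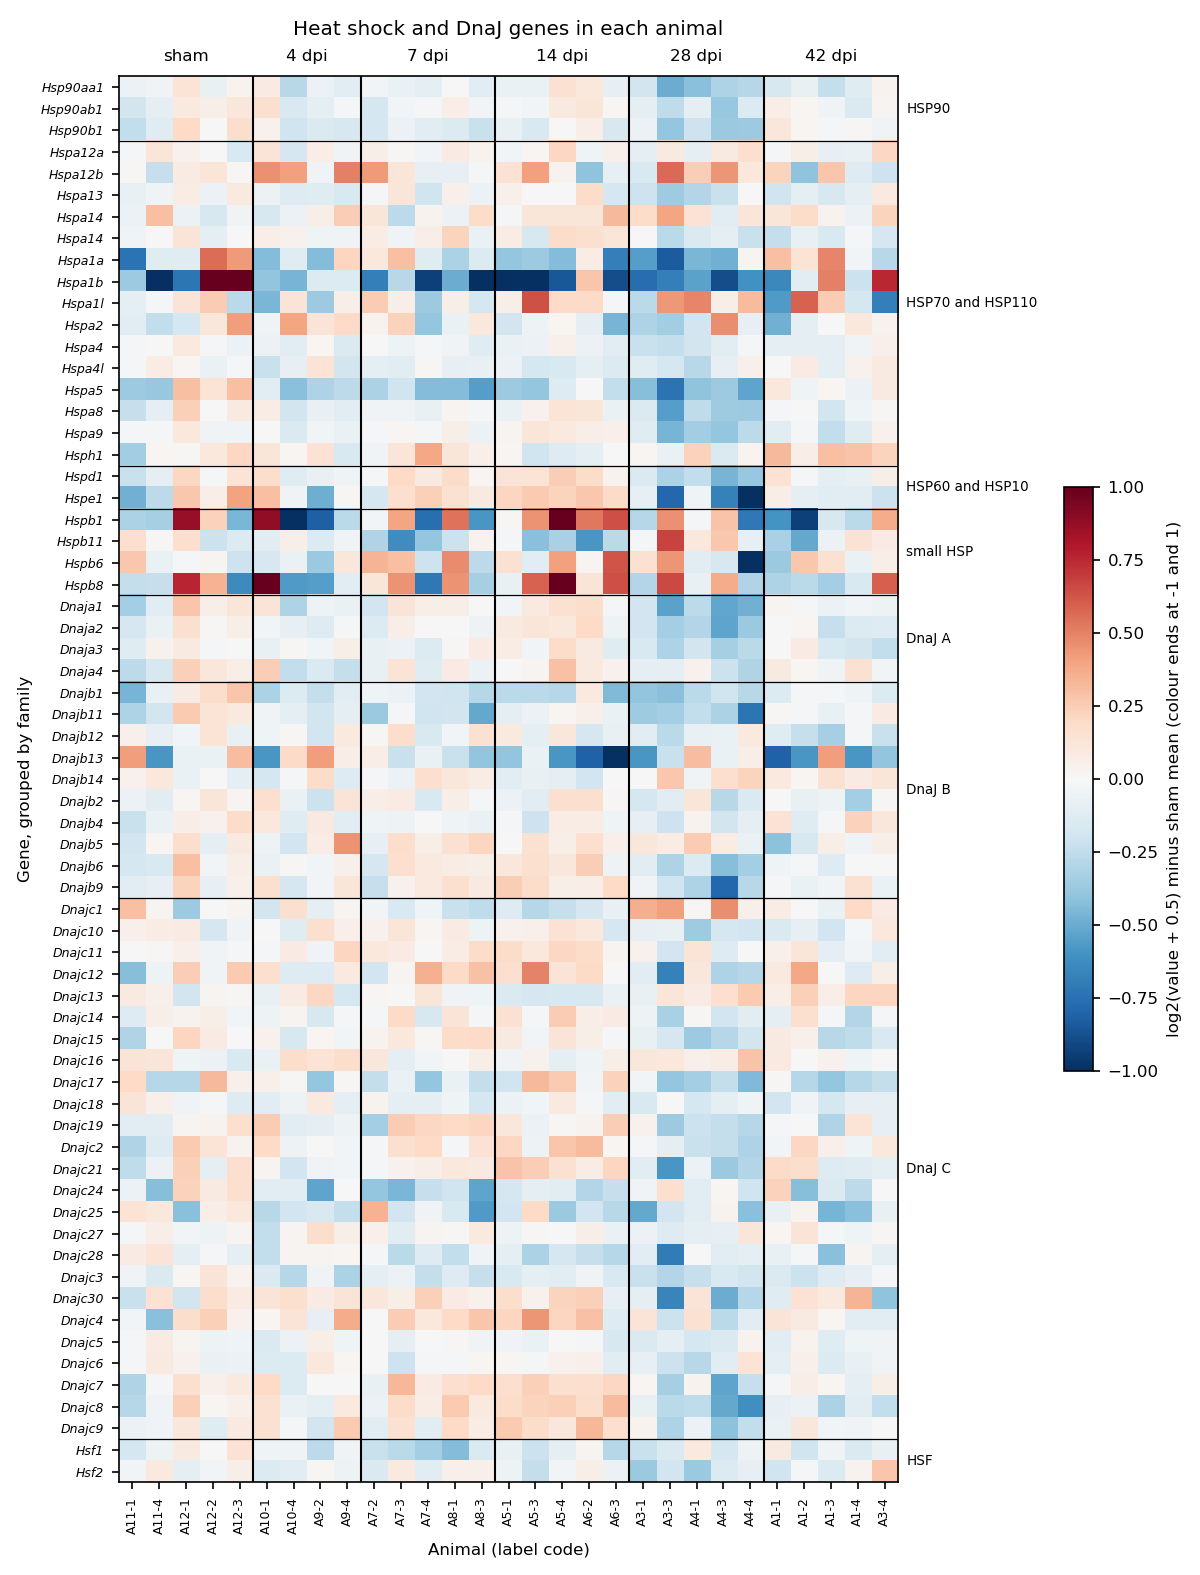
Each row is a heat shock or DnaJ gene, grouped by family, and each column an animal. Colour gives log2(value + 0.5) minus the sham mean of that gene. Most rows of the HSP90, HSP60 and HSP10 and DnaJ A families are blue in the 28 dpi columns, with medians of -0.28, -0.42 and -0.30 over their genes, while the rows of Hspb1 and Hspb8 change from animal to animal in every group.

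No member was called at 4, 7 or 14 dpi. Of the 65 members, 3, 6 and 12 had an unadjusted limma p under 0.05 at these times, beside 874, 992 and 1973 of all 16995 genes. An adjusted p under 0.05 was found for 0 members, beside 0.106%, 0.0294% and 0.00588% of all genes in either direction. At 4 dpi the smallest p belonged to Dnajc3, an inhibitor of the ER stress kinase PERK. Its values were 60.0, 55.5, 62.4, 67.3 and 63.1 in sham animals and 55.7, 50.5, 60.0 and 49.3 at 4 dpi. The groups overlapped, and the log2 fold change was -0.19 ± 0.0615 (SE, adjusted p = 0.381).

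Hspa5, the ER chaperone BiP that senses unfolded proteins, was next at 4 dpi and had the smallest p at 7 dpi. In sham animals its values were 141.6 and 139.9 in unit A11 and 223.9, 200.3 and 223.5 in unit A12, with no value between. At 4 dpi it measured 168.4, 135.9, 146.8 and 151.5, and the 7 dpi animals had 146.2, 158.1, 134.5, 134.4 and 124.2. The log2 fold changes were -0.27 ± 0.115 (adjusted p = 0.804) and -0.39 ± 0.109 (adjusted p = 0.667), and both groups overlapped with the A11 animals. With only the 3 A12 animals as sham, a setting chosen after these values were seen, Hspa5 was the 1 member called at each of these times, at -0.52 (adjusted p = 0.0326) and -0.63 (adjusted p = 0.00249), and with only the 2 A11 animals the values were 0.09 and -0.02 (adjusted p = 0.869 and 0.969). Of all genes, 2 were then higher and 4 lower at 4 dpi with the A12 animals alone, and 0 and 7 at 7 dpi.

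Hsf1, the heat shock factor itself, was the other gene at 7 dpi, with 11.9, 13.0, 14.4, 13.5 and 15.0 in sham animals and 11.5, 11.1, 10.6, 9.9 and 12.2 at 7 dpi. Only the animal at 12.2 lay within the sham range, and the log2 fold change was -0.28 ± 0.0824 (adjusted p = 0.692). Against the A12 animals it was -0.36 (adjusted p = 0.399) and against the A11 animals -0.17 (adjusted p = 0.579). At 14 dpi the 2 smallest p values were those of Dnajc8, a protein of the spliceosome, and of Dnajb13. Dnajc8 had a mean of 45.1 at 14 dpi against 38.7 in sham animals, a log2 fold change of 0.23 ± 0.0892 (adjusted p = 0.392). It was 0.39 against the A11 animals (adjusted p = 0.082) and 0.12 against the A12 animals (adjusted p = 0.984). Dnajb13 stood at 0.22 against 0.58, close to the rounding step of the values, with a log2 fold change of -0.58 ± 0.238 (adjusted p = 0.392).

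At 28 dpi, 21 of the 65 members (32.3%) fell and 1 rose against sham, where 13.0% of all genes were lower and 11.9% higher. By family, these were all 3 HSP90 genes, both chaperonin genes, 5 of 15 HSP70 and HSP110, 3 of 4 DnaJ A, 4 of 10 DnaJ B and 3 of 25 DnaJ C genes, and Hsf2. The median log2 fold change was -0.18 over the 65 members and -0.0048 over all genes. Changes were modest in size. None of the members passed the 1.5-fold limit for significantly differentially expressed genes (SDEGs), which 4.64% of all genes did. In 5 members, or 7.69%, all 28 dpi animals lay below all sham animals, against 3.75% of all genes. They were Hspa9, Hsp90aa1, Dnaja2, Dnaja3 and Dnajc3.

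The fallen members were among the more abundant ones, with a median sham value of 69.6 against 15.4 for the other 44. In a fit of the 8862 genes with a mean value of at least 10, chosen after this was seen, 23 of 50 members (46.0%) were lower beside 24.4% of all genes. Counted by animal and with no test, 22 of 65 members (33.8%) lay below the sham range in animal A4-1, whose ribosomal RNA was within the sham range, against 19.0% of all genes. Shares of this size were also seen at times without a called member, with 30.8% of members and 20% of all genes in A1-3 and 26.2% and 18.4% in A1-1 at 42 dpi, and 26.2% and 15.4% in A7-4 at 7 dpi. In the other 28 dpi animals the members' shares ran from 32.3% to 55.4% and those of all genes from 16.0% to 32.7%. In the animal richest in ribosomal RNA, A6-3 at 14 dpi, the shares were 23.1% and 17.9%.

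The count at 28 dpi depended on the sham animals. With only the A12 animals as sham, 27 members (41.5%) were lower and 2 higher, beside 14.6% of all genes lower. With only the 2 A11 animals none was called and the members' median was -0.09 beside -0.02 for all genes, of which 1 was then lower and 3 higher. Without A12-1 alone 12 members (18.5%) were lower, where 6.31% of all genes were, and without A3-3 of the 28 dpi group 14 (21.5%), where 6.54% were. With ribosomal RNA as a covariate, 0 members and 0 of all genes were called, while the members' median was -0.13, and without the 5 animals of the highest ribosomal RNA 15 members (23.1%) were lower beside 9.47% of all genes. The slope on gene length of an animal's log2 deviations from the gene means is only a possible sign of RNA quality. It was 0.0499, 0.0549 and 0.0764 in A3-3, A4-3 and A4-4, which had 36, 32 and 27 members below the sham range. In A3-1 and A4-1, which had 21 and 22, it was -0.00375 and -0.00581. Among sham animals it ranged from -0.0455 in A12-1 to 0.0467 in A11-1. After correction for gene length 22 members (33.8%) were lower, and 13.7% of all genes. In every fit that left out 1 animal, 12 members kept their call, namely Hspa5, Hspa8, Hspa9, Hsp90aa1, Hsp90b1, Hspd1, Dnaja1, Dnaja2, Dnaja3, Dnajb11, Dnajc3 and Dnajc8.

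**Figure D2:**
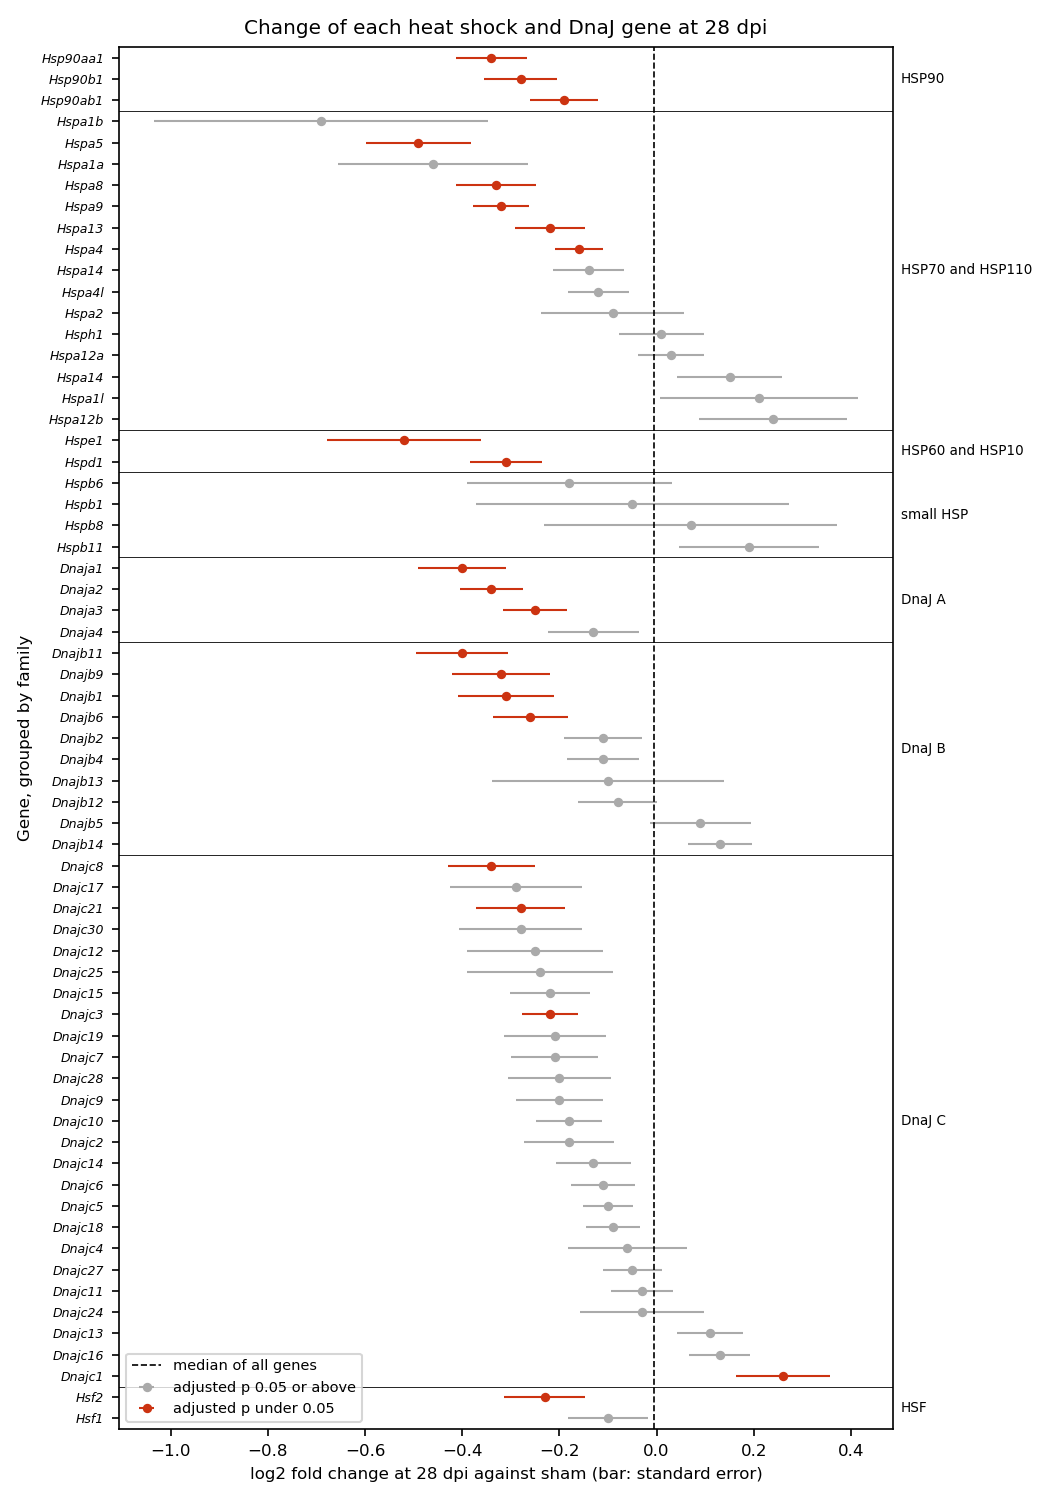
Points give the log2 fold change of each member at 28 dpi against sham, with bars of 1 standard error, 5 animals a group. Red points have an adjusted p under 0.05, and the dashed line is the median of all genes. All 3 HSP90 genes and both chaperonin genes are red and left of the line, while none of the 4 small heat shock protein genes is red.

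Of the 10 ER members, 6 fell and 1 rose at 28 dpi, with a median log2 fold change of -0.22. The values of Hspa5 at 28 dpi were 135.2, 108.8, 137.5, 141.4 and 126.2, so that 4 of 5 animals were below the lowest sham animal. The mean fell from 186 ± 42.3 to 130 ± 13.0 (SD, n = 5 each), a log2 fold change of -0.49 ± 0.109 (adjusted p = 0.00315). This size depended on the sham unit, as it was -0.74 against the A12 animals (adjusted p = 9.94e-05) and -0.12 against the A11 animals (adjusted p = 0.564).

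Hsp90b1, the ER chaperone GRP94, had 183.9, 199.9, 250.5, 216.7 and 245.6 in sham animals and 209.3, 166.8, 188.6, 168.3 and 169.2 at 28 dpi. 3 of 5 animals were below the sham range, and the log2 fold change was -0.28 ± 0.0743 (adjusted p = 0.00941). Dnajb11, the ER DnaJ protein ERdj3 that works with BiP, fell by 0.40 ± 0.0947 on the log2 scale (adjusted p = 0.00463), from 23.8, 26.1, 35.7, 32.6 and 31.8 to 23.1, 23.4, 25.0, 23.7 and 17.7. All its 28 dpi animals were below 26.1, and 4 of 5 were below the lowest sham animal. The other ER members that fell were Dnajb9 at -0.32, Dnajc3 at -0.22 and Hspa13 at -0.22. Dnajc1, an ER membrane DnaJ protein that contacts ribosomes, rose by 0.26 ± 0.0971 (adjusted p = 0.0467), with 32.6, 33.7, 25.4, 35.0 and 26.1 against 31.2, 25.6, 19.5, 25.2 and 25.7 in sham animals. 3 of its 5 animals lay above the sham range. The call was absent after correction for gene length and without any 1 of 7 animals. Its sign was reversed when each animal was scaled to the same sum, a setting in which the median of all genes was -0.72.

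A list of 12 members of the heat shock response, which also holds the constitutive Hspa8 and Hsp90ab1 and the mitochondrial Hspd1 and Hspe1, had 7 genes that fell and none that rose, with a median of -0.32. Hspa1a, Hspa1b, Hsph1, Hspb1 and Hspa4l of this list were not called. Hspa8 measured 1501.2, 1645.4, 2077.3, 1764.2 and 1875.8 in sham animals and 1594.2, 1204.7, 1476.6, 1377.5 and 1368.5 at 28 dpi. A single 28 dpi animal, A3-1, lay within the sham range, and the log2 fold change was -0.33 ± 0.0825 (adjusted p = 0.00567). For Hsp90aa1, the inducible cytosolic HSP90, the sham values of 993.8, 1007.2, 1138.8, 979.4 and 1056.2 and the 28 dpi values of 912.2, 733.4, 774.6, 833.2 and 846.9 did not overlap. It fell by 0.34 ± 0.0729 (adjusted p = 0.00259).

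The constitutive Hsp90ab1 fell by 0.19 ± 0.0703, from a mean of 594 ± 52.6 to 521 ± 43.6, with an adjusted p of 0.0472 that was lost without any 1 of 6 animals. Dnaja1, a cytosolic DnaJ partner of Hspa8, changed from 115.2, 134.6, 177.5, 151.7 and 158.9 to 127.9, 100.7, 121.6, 101.9 and 104.3, a fall of 0.40 ± 0.0900 (adjusted p = 0.00344). At 28 dpi 3 of 5 animals were below the sham range and the other 2 lay above only the lowest sham animal. Dnaja2, another general HSP70 partner, fell from 79.8, 85.6, 100.3, 90 and 93.1 to 78.4, 70.6, 73.1, 62.0 and 69.2 with no overlap (-0.34 ± 0.0647, adjusted p = 0.00145). Dnajb1, the stress-inducible HSP40, was called at -0.31 ± 0.0982 (adjusted p = 0.0221), yet none of its 28 dpi animals, at 23.2 to 27.1, lay below the lowest sham animal at 22.5.

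Hspa1a and Hspa1b, the strongly heat-inducible HSP70 genes, were not called. In words of 31 bases, 65.4% and 68.0% of their exon sequence is shared with other genes, and each shares most with the other, so reads may have been divided between them uncertainly. Hspa1b had 4.1, 1.9, 3.1, 14.5 and 11.8 in sham animals, where A12-2 and A12-3 stood apart, and 3.0, 3.2, 3.6, 2.7 and 3.4 at 28 dpi. The log2 fold change of -0.69 ± 0.344 had an adjusted p of 0.134. It was -1.25 and called against the A12 animals (adjusted p = 0.00908), and 0.14 against the A11 animals (adjusted p = 0.851). Hspa1a had -0.46 ± 0.196 (adjusted p = 0.0822), with -0.75 and a call against the A12 animals (adjusted p = 0.00778) and -0.03 against the A11 animals (adjusted p = 0.961). Hsph1, the HSP110 protein that releases nucleotide from HSP70, measured 126.7, 163.7, 162.6, 173.4 and 185.8 in sham animals and 163.6, 153.5, 188.9, 145.4 and 164.2 at 28 dpi. These ranges overlapped almost fully and the log2 fold change was 0.01 ± 0.0869 (adjusted p = 0.936). When each animal was scaled to the same sum, which includes ribosomal RNA, Hsph1 was at -0.78 and the median of all genes at -0.72.

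**Figure D3:**
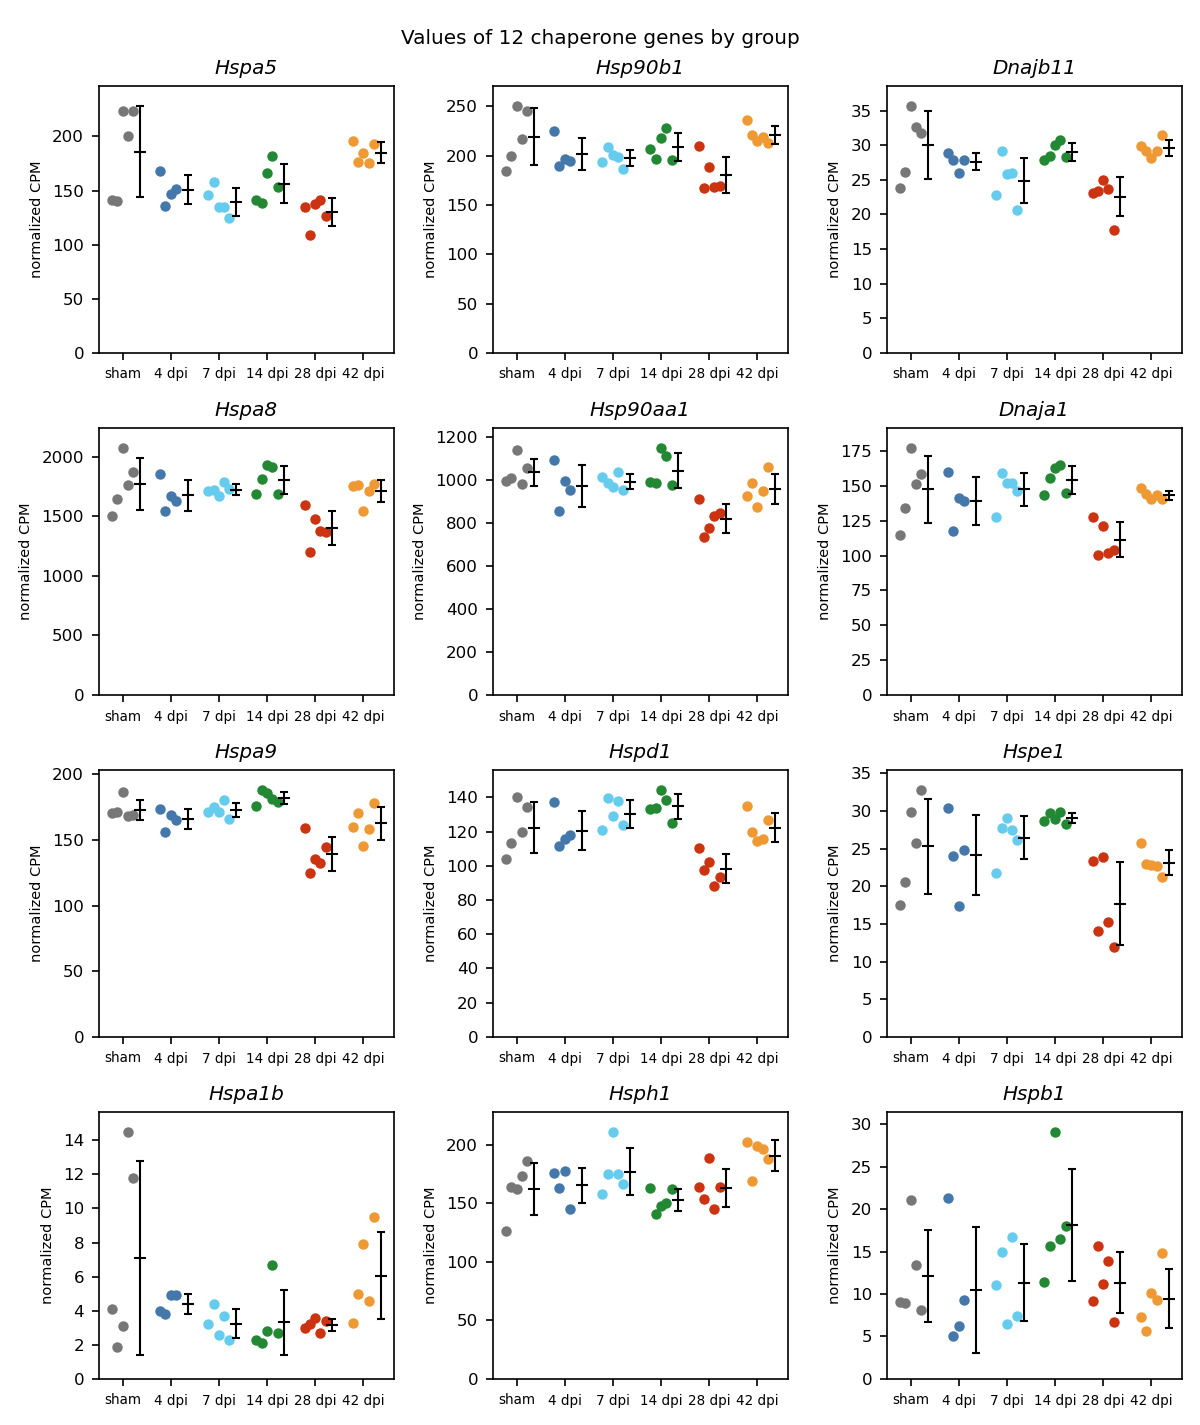
Normalized CPM of 12 chaperone genes in each animal (points) by group, with the mean and SD beside them, n = 4 at 4 dpi and 5 in the other groups. The 28 dpi points of Hspa9 and Hsp90aa1 lie below all sham points, and the sham points of Hspa5 and Hspa1b fall apart into a lower and a higher set.

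Mitochondrial members fell in 4 of 7 cases, with a median of -0.25. Hspa9, the mitochondrial HSP70 mortalin that pulls in imported proteins, had 170.4, 170.9, 186.4, 168.3 and 168.6 in sham animals and 159.0, 125.0, 135.5, 132.4 and 144.4 at 28 dpi. The groups did not overlap, and the fall of 0.32 ± 0.0572 had the smallest p of all members (adjusted p = 0.00139). The sham values of both units were alike here, and against A11 alone the log2 fold change was -0.30 (adjusted p = 0.0842).

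Hspd1 measured 104.0, 113.5, 140.1, 120.0 and 134.1 in sham animals and 110.1, 97.5, 102.4, 88.0 and 93.6 at 28 dpi, with 4 of 5 below the sham range (-0.31 ± 0.0743, adjusted p = 0.00478). Hspe1, its head-to-head neighbour, had the largest called fall, 0.52 ± 0.159 (adjusted p = 0.0185). Its values were 17.5, 20.5, 29.8, 25.8 and 32.8 in sham animals and 23.3, 14.1, 23.9, 15.2 and 11.9 at 28 dpi, so that animals A3-1 and A4-1 lay within the sham range and the other 3 below it. The call was lost without A12-1, A12-3, A3-3 or A4-4. Against the A12 animals the fall was -0.77 (adjusted p = 0.00219) and against the A11 animals -0.15 (adjusted p = 0.705). Other called genes moved likewise with the sham unit, with -0.55 and -0.17 for Dnaja1, -0.56 and -0.15 for Dnajb11, -0.49 and -0.04 for Dnajb1, -0.42 and -0.15 for Hspd1, -0.40 and -0.09 for Hsp90b1, -0.44 and -0.17 for Hspa8 and -0.28 and -0.05 for Hsp90ab1. For Dnajc8 the values were -0.45 and -0.19, for Dnajc21 -0.39 and -0.12, for Dnajb9 -0.39 and -0.23, for Dnajc3 -0.28 and -0.13, and for Dnaja2 -0.42 and -0.23. Hsp90aa1 depended less on the unit, with -0.37 and -0.29, and Hsf2 went the other way, with -0.21 and -0.26. The rise of Dnajc1 was 0.37 against the A12 animals (adjusted p = 0.0111) and 0.10 against the A11 animals (adjusted p = 0.687). The annotated gene models of Hspd1 and Hspe1 overlap at their starts (GENCODE), and the genes share 50.1% and 24.8% of their 31-base words with other genes (Hspd1 most with the pseudogene Hspd1-ps3), and strand was not recorded. Dnaja3, the mitochondrial DnaJ partner of mortalin, fell by 0.25 with no overlap.

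Of the remaining DnaJ genes, Dnajc8 fell from 31.5, 37.5, 45.5, 39.0 and 39.9 to 36.5, 31.7, 32.1, 26.8 and 25.0 (-0.34 ± 0.0892, adjusted p = 0.00745), and its groups overlapped in 3 of the 5 animals. Dnajc21, which acts in ribosome assembly, and Dnajb6, a suppressor of aggregation, fell by 0.28 and 0.26. Hspa4, an HSP110 relative that releases nucleotide from HSP70, fell by 0.16 (adjusted p = 0.0229). None of the 3 members of membrane traffic and synapses was called. Dnajc5 had 273 ± 10.9 in sham animals and 254 ± 14.9 at 28 dpi, a log2 fold change of -0.10 ± 0.0506 (adjusted p = 0.125). Hsf2, the heat shock factor of development and differentiation, was called at -0.23 ± 0.0834 (adjusted p = 0.0415), with 13.1 to 15.0 in sham animals and 10.7 to 13.2 at 28 dpi, and lost the call without any 1 of 7 animals. Hsf1 was at -0.10 ± 0.0824 (adjusted p = 0.383).

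None of the 4 small heat shock protein genes was called against sham at any time, and Hspb1 and Hspb8 varied several-fold between animals of the same group. Hspb1 (HSP25) measured 9.0, 8.9, 21.1, 13.4 and 8.1 in sham animals. The 4 dpi animals had 21.3, 5.0, 6.2 and 9.3, and those at 14 dpi 11.4, 15.6, 29.1, 16.5 and 18. Against sham its log2 fold change at 28 dpi was -0.05 ± 0.322 (adjusted p = 0.918), the sign of which depended on single animals. Animals high in Hspb1 were also high in motor neuron markers (Chat, Isl1, Mnx1, Slc18a3 and Slc5a7), whose summed value was 262.6 in A12-1 and 67.9 in A12-3, the highest and the lowest sham animals for this gene.

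This relation was examined after the values had been seen. The markers were summed without scaling, and Slc5a7 made up most of the sum. Its sham mean was 97.2 of 152, beside 23.0 for Chat and 1.62 for Mnx1. Within groups (log2 values with group means removed, 29 animals), the Pearson correlation of Hspb1 with the marker sum was 0.93 and that of Hspb8, chosen after its values were seen, 0.95 (both permutation p = 1e-05, the smallest that 100000 permutations within groups can give, and adjusted p = 0.00143 over 16990 genes). Spearman's rho was 0.90 and 0.94 (permutation p = 1e-05 each). Without A10-4 at 4 dpi and A5-4 at 14 dpi, the animals farthest from the median marker sum, r was 0.93 and 0.97. By r, Hspb8 had rank 13 and Hspb1 rank 24 of all genes, and 2.24% of all genes passed with r above 0. Of the 65 members only these 2 and Hspa12a, at r = 0.68 (permutation adjusted p = 0.0198) and 0.56 without the same 2 animals, passed. Hspb6, the muscle-rich member of the family, had r = 0.30 and Hspb11, a protein of ciliary transport, 0.18.

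**Figure D4:**
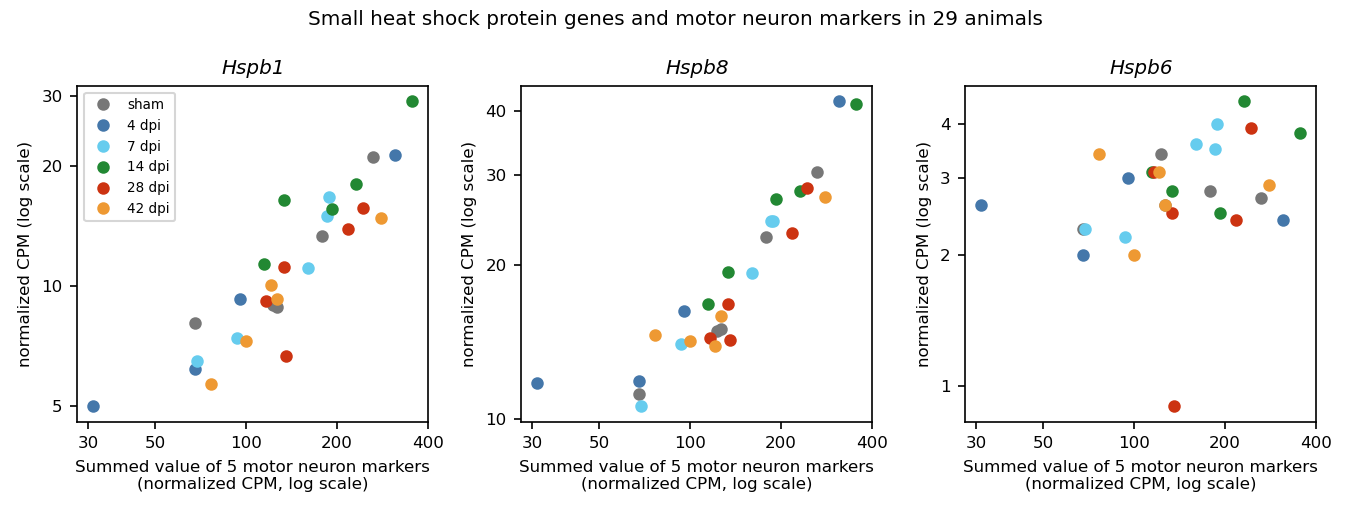
Values of Hspb1, Hspb8 and Hspb6 (normalized CPM, log scale) against the summed value of 5 motor neuron markers (log scale) in 29 animals, coloured by group. Points of Hspb1 and Hspb8 climb with the marker sum, with r of 0.93 and 0.95 within groups, while Hspb6, at r = 0.30, did not pass the test.

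Between 14 and 28 dpi, 29 members (44.6%) fell and 4 rose, beside 21.9% and 21.0% of all genes. This comparison does not use sham animals, but it shares the 28 dpi animals with the one above. In the fit of genes with a mean value of at least 10, 54.0% of members were lower beside 34.0% of all genes. With ribosomal RNA as a covariate, 27 members were lower and 4 higher, beside 3388 and 3326 of all genes. When each animal was scaled to the same sum, 2 members (3.08%) were lower and 0 higher, beside 3.74% of all genes lower. Only Hspe1 was an SDEG, against 11.8% of all genes. At 14 dpi it measured 28.7, 29.7, 28.9, 29.8 and 28.2, a narrow range above all 28 dpi animals, and the fall was 0.75 ± 0.159 (adjusted p = 0.000438). The next largest falls were those of Dnajc8 (-0.57), Dnajc21 (-0.48), Dnaja1 (-0.48), Dnajb9 (-0.47), Hspd1 (-0.46), Dnajc12 (-0.45) and Dnaja2 (-0.44). Except for Dnajc12, a cochaperone of aromatic amino acid hydroxylases, all 28 dpi animals were below all 14 dpi animals in each of them. Such a gap was found for 18 of the 65 members (27.7%) and for 11.8% of all genes. Hspa9 fell by 0.39 with no overlap, from 175.9, 188.1, 185.3, 181.1 and 179.1.

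Cell markers and the slope on gene length differed between these groups too, and their part was not tested. Of the markers, 4 of 5 for oligodendrocytes (median -0.33), 2 of 5 for microglia and 2 of 8 for neurons were lower at 28 than at 14 dpi, and 2 of 4 for endothelium, 1 of 8 for neurons, 1 of 5 for astrocytes, 1 of 2 for oligodendrocyte precursors, 1 of 5 for blood and 1 of 4 for fibroblasts and meninges were higher. The oligodendrocyte sum was 5224 to 6509 at 14 dpi. The slope on gene length ran from -0.0441 to -0.0177 at 14 dpi, below all 28 dpi animals.

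All 7 mitochondrial members fell between 14 and 28 dpi, with a median of -0.29. Hspa5 was near the limit at -0.27 ± 0.109 (adjusted p = 0.048). The 4 genes that rose were Hspb11 by 0.51, Dnajc1 by 0.44, Dnajc13, which sorts cargo on endosomes, by 0.25 and Dnajb14, an ER membrane protein, by 0.22. For Dnajc13 and Dnajb14 the sign was reversed by scaling each animal to the same sum, where the median of all genes was -0.22. For Dnajb14 correction for gene length also reversed it.

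Between 28 and 42 dpi no member fell and 7 rose (Hspa5, Dnajb11, Dnaja1, Hspd1, Hsp90b1, Dnaja2 and Hspa9), beside 1.45% of all genes called higher. Hspa5 rose by 0.51 ± 0.109 (adjusted p = 0.0248), to 195.9, 176.0, 184.7, 175.0 and 193.0, values above all 28 dpi animals. Dnajb11 rose by 0.39, Dnaja1 by 0.37, Hspd1 by 0.31 and Hsp90b1 by 0.29, each without overlap between the groups. In all, 6 members (9.23%) were above every 28 dpi animal at 42 dpi, as were 1.64% of all genes. The calls were fragile. No member was called without A3-3 or A4-3 of the 28 dpi group or without A1-1, A1-2 or A1-4 of the 42 dpi group, 1 was called without A4-4 or A3-4, and 13 were called without A3-1. The number of all genes called higher moved with them, from 246 to between 1 and 25 without each of the first 5 animals, 45 and 85 without A4-4 and A3-4, and 900 without A3-1. With ribosomal RNA as a covariate 5 were higher, beside 120 of all genes.

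Against sham, none of the members was called at 42 dpi, beside 0.0235% of all genes. An unadjusted limma p under 0.05 was found for 5 of 65 members and for 2507 of 16995 genes. The members' median was -0.05 and Hspa5 was at 0.02 ± 0.109 (adjusted p = 0.952). Its sign depended on the sham unit, with 0.39 against the A11 animals (adjusted p = 0.25) and -0.22 against the A12 animals (adjusted p = 0.225). The smallest p belonged to Hsph1, with 202.4, 169.0, 198.9, 196.1 and 187.8 at 42 dpi. 4 of these animals were above the sham range, and the log2 fold change was 0.24 ± 0.0869 (adjusted p = 0.185). Against the A11 animals it was 0.40 (adjusted p = 0.253) and against the A12 animals 0.13 (adjusted p = 0.447). Dnajc13 followed at 0.16 ± 0.0671 (adjusted p = 0.257). In both, scaling each animal to the same sum reversed the sign, and the median of all genes was then -0.52.

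Partner genes of the chaperone system were read in the same fit, in which 13.0% of all genes were lower at 28 dpi. In the fit of genes with a mean value of at least 10 the share was 24.4%. With ribosomal RNA as a covariate no gene was lower. All 8 subunits of the CCT chaperonin, which folds actin and tubulin, were lower, with a median of -0.35 and a range of -0.37 to -0.22. Cct3 fell by 0.37 (adjusted p = 0.00145), from a mean of 77.1 ± 7.21 to 59.4 ± 4.99, and Cct8 and Cct4 by 0.36 each. Of 15 HSP90 cochaperones 11 fell, led by Ahsa2 and Ahsa1, which stimulate the ATPase of HSP90, at -0.43 each, and Ppid at -0.39. 4 of 14 HSP70 cofactors fell, among them the exchange factors Bag2 (-0.43), Bag1 (-0.33) and Bag5 (-0.29).

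Of 15 other HSF1 targets, 10 were lower. The metallothioneins Mt2 and Mt1, which bind metal ions and are also induced by glucocorticoids, changed most, by -0.75 and -0.58, followed by Cacybp at -0.47. Of 20 ER chaperones and genes of the unfolded protein response, 12 were lower and none higher, with Sdf2l1 at -0.70, Creld2 at -0.47 and the transcription factor Xbp1 at -0.45. Sham units stood apart in these genes too. Xbp1 had 23.8 and 25.8 in the A11 animals, 41.7, 38.4 and 43.1 in the A12 animals and 27.4, 18.9, 27.8, 26.6 and 22.4 at 28 dpi, so that the 28 dpi values spanned those of A11 and lay below those of A12. In Sdf2l1, Creld2, Cacybp and Ahsa1 both A11 animals likewise lay below all A12 animals. The ER stress response element was present in 5 of the 15 genes of this list that had a window, and of these Calr (-0.36), Canx (-0.22), Pdia6 (-0.42) and Creld2 fell while Syvn1 was at 0.15 (adjusted p = 0.343).

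Mitochondrial protease and import genes were called in 2 of 12 cases, Yme1l1 (-0.21) and Tomm20 (-0.20), and neither of the cold-inducible genes Cirbp and Rbm3 was called against sham, while between 14 and 28 dpi they fell by 0.65 and 0.81. Of 10 immediate early genes, which report recent neuronal activity, only Fos fell (-0.66, adjusted p = 0.0406). At 42 against 28 dpi, 5 of 8 CCT subunits, 6 of 20 ER genes, 3 of 15 HSF1 targets, 2 of 15 HSP90 cochaperones and 1 of 14 HSP70 cofactors rose, and none of these genes fell, beside 1.45% of all genes called higher. That share was 246 genes, and the count was 1 without A3-3, 4 without A4-3 and 2 in a fit of only the 2 groups. Some genes stand in more than 1 list, such as Chordc1, Ahsa1, Stub1, Hyou1 and Grpel1.

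**Figure D5:**
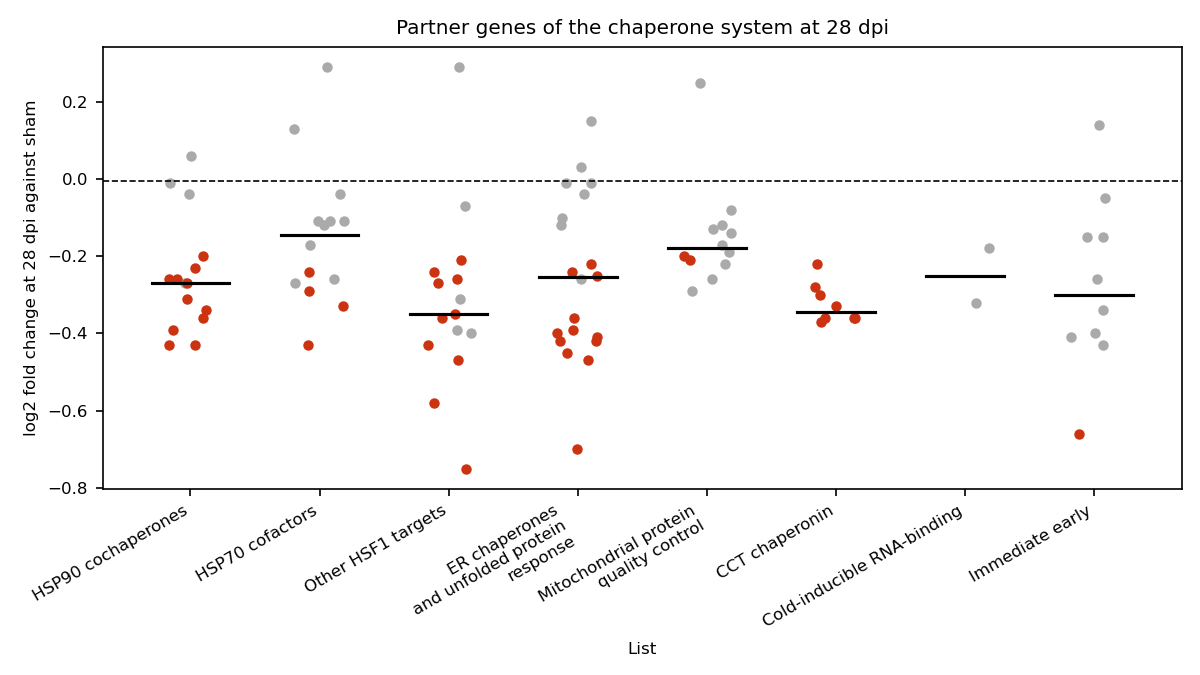
Log2 fold change at 28 dpi against sham of each partner gene by list, with the list's median as a bar and the median of all genes as a dashed line. Red points have an adjusted p under 0.05. All 8 CCT points lie together between -0.37 and -0.22, and the metallothionein Mt2 and the ER gene Sdf2l1 lie lowest, at -0.75 and -0.70.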

How the data were processed

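RNA-seq values of 29 animals were analysed as deposited. The authors aligned reads to the mouse reference mm10 using SALMON, summarized them per gene with Tximport and normalized them with edgeR (edgeR 3.14.0 and R 3.4.1 in the submitters' processing notes). The deposited score values are normalized CPM rounded to 0.1, not counts, so depth is unknown and the spread between animals is the sole measure of precision, and an animal's values sum to between 714597 and 2256910. Columns with the authors' own fold changes, p values and calls for each time point were not used. Libraries were not stranded.

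Values were analysed as log2(value + 0.5), so changes of low genes are understated. One linear model over 6 groups was fitted to all 16995 genes with limma 3.58.1 under R 4.3.3 (trend on the mean) with Benjamini-Hochberg adjustment over all genes. Calls had an adjusted p under 0.05, and SDEGs also a fold change above 1.5. The 5 comparisons with sham share the sham animals, and 28 against 14 dpi and 42 against 28 dpi share the 28 dpi animals. Groups came from the sample labels, which do not say that animals were independent in other respects, so p values measure the spread between these samples. The unit in the labels could not be separated from the time point, since only unit A3 holds animals of more than 1 group. The members and all lists were chosen with earlier results of these data known.

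Named were members that were SDEGs, up to 8 called members with the largest rise and fall at each comparison, the 2 with the smallest p where none was called, and 17 fixed genes (Hspa1a, Hspa1b, Hspa5, Hspa8, Hspa9, Hsp90aa1, Hsp90ab1, Hsp90b1, Hspb1, Hspd1, Hspe1, Hsph1, Dnaja1, Dnajb1, Dnajc5, Hsf1 and Hsf2). Partner genes were named by the second rule with a limit of 3 a list. Others were named because a count covers few genes. The 12 members of the heat shock response were Hspa1a, Hspa1b, Hspa8, Hsph1, Hsp90aa1, Hsp90ab1, Dnaja1, Dnajb1, Hspb1, Hspd1, Hspe1 and Hspa4l. Exon lengths and shared sequence were computed from GENCODE M21 transcripts. The fit was tested on simulated data. Alternatives were other normalizations, ribosomal RNA as a covariate, a gene length correction, no trend, fits of only the 2 groups compared, pseudocounts of 1 and 0.05, filters, stricter limits, the label unit as a random block and leaving out animals. Promoter windows are from RefSeq (GRCm38.p6), the same build as mm10.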

Additional observations from a re-analysis of the deposited data

Results flagged for a closer look

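In all, 7 members differed between 28 and 42 dpi by limma with adjustment over all genes, all higher at 42 dpi, namely Hspa5 by 0.51 on the log2 scale, Dnajb11 by 0.39, Dnaja1 by 0.37, Hspd1 by 0.31, Hsp90b1 by 0.29, Dnaja2 by 0.25 and Hspa9 by 0.22. Between 14 and 28 dpi, the 8 largest falls were those of Hspe1 (-0.75), Dnajc8 (-0.57), Dnajc21 (-0.48), Dnaja1 (-0.48), Dnajb9 (-0.47), Hspd1 (-0.46), Dnajc12 (-0.45) and Dnaja2 (-0.44), and the 4 rises those of Hspb11 (0.51), Dnajc1 (0.44), Dnajc13 (0.25) and Dnajb14 (0.22). As each of these compares 2 stroke groups directly, they are tests of the difference between time points. Both comparisons share the 28 dpi animals, and 4 of these 5 animals were rich in ribosomal RNA, as were 2 animals at 14 dpi, while all 5 at 42 dpi lay above the sham range. With it as a covariate, 27 of the members were lower and 4 higher between 14 and 28 dpi, and 5 were higher between 28 and 42 dpi.

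In 9 of 174 combinations of a named member and a group, 1 animal stood apart from the others by Dixon's test, a share close to the 1 in 20 that chance gives. These values were 11.2 for Hsf1 in animal A9-2 at 4 dpi, 33.3 for Dnajb1 and 6.7 for Hspa1b in A6-2 at 14 dpi, and 50.3 for Dnajc13 in A6-3 at 14 dpi. Further ones were 17.7 for Dnajb11 in A4-4 at 28 dpi, 186.4 for Hspa9 in sham animal A12-1, 1549.6 for Hspa8 and 0.9 for Dnajb13 in A1-3 at 42 dpi, and 21.4 for Dnajb9 in A1-4 at 42 dpi.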

How the results depend on the processing

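At 28 dpi against sham, 22 members were called in all. The count was 12 at an adjusted p under 0.01, 0 with the 1.5-fold limit, 9 in a fit of only the 2 groups (4.80% of all genes lower), 60 when each animal was scaled to the same sum (with 11214 of all 16995 genes lower and their median at -0.72), 0 with ribosomal RNA as a covariate, 0 without the sham animals of unit A12, and between 12 (without sham A12-1, 6.31%) and 26 (without sham A11-1, 15.1%) without 1 animal, with 14 without A3-3. From 14 to 28 dpi the 33 calls became 21 at the stricter limit, 1 with the fold limit and 2 with the same sum, 31 with ribosomal RNA as a covariate, and 26 to 35 without 1 animal. From 28 to 42 dpi the 7 calls became 0 at the stricter limit, with the fold limit, with the same sum and without the 5 animals of the highest ribosomal RNA, 1 without the trend or with only the 2 groups, 5 with ribosomal RNA as a covariate, and 0 to 13 without 1 animal. At 4 and at 7 dpi 1 member was called without the sham animals of unit A11.

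Scaling to the same sum reversed Dnajc8 at 14 dpi (-0.29) and Dnajc1 and Hsph1 at 28 dpi (-0.51 and -0.78). It also reversed Hsph1 and Dnajc13 at 42 dpi (-0.31 and -0.39), and Dnajc13 and Dnajb14 between 14 and 28 dpi (-0.01 and -0.04). This sum includes ribosomal RNA. The median of all genes was then -0.48, -0.72 and -0.52 at 14, 28 and 42 dpi, and -0.22 between 14 and 28 dpi. Correction for gene length reversed Dnajb14 between 14 and 28 dpi (-0.07) and Hsph1 at 28 dpi (-0.05). Without the A12 animals Hspa5 was reversed at 4 dpi (0.09) and Hspa1b, Hspb1 and Hsf1 at 28 dpi (0.14, 0.27 and 0.02). Without the A11 animals Hsph1 was reversed at 28 dpi (-0.10) and Hspa5 at 42 dpi (-0.22). Without 1 animal, Hspb1 at 28 dpi ranged from -0.18 to 0.16 and Hsph1 from -0.07 to 0.06. Other than for the scaling and for fits on fewer animals, the cause was not tested. No paired analysis was possible because no animal code of one group recurs in another. The unit in the code was also taken as a random block, with 1 correlation of -0.0441 for all genes. The direction and call of every named member stayed as they were. With 1 correlation for all genes and units other than A3 within 1 group, this fit does not take out the difference between sham units A11 and A12.

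Depth is unknown, so the counting error of low genes such as Dnajb13 and Hspa1b cannot be separated from the spread between animals. Ribosomal RNA, label unit and time point overlap, and without the A12 animals only 2 sham animals remain.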
